A study of Schizosaccharomyces pombe with 30 samples.

Results

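The H3K9me2 ChIP-seq windows described here lie along the arms of the 3 fission yeast chromosomes, away from the large heterochromatin blocks. They are the filtered 300 bp windows on chromosomes I, II and III that remain once 100 kb at each end of I and II, 50 kb at each end of III, the 3 pericentromeres, the mating type locus and its surroundings on II, the islands at mcp7, ssm4 and mei4 and 3 small further sites are set aside by position. In all, 175 of the 1500 filtered windows met this rule, 90 on chromosome I, 50 on II and 35 on III. Joined over gaps of up to 5 kb, they formed 29 clusters. All 13 Tf2 genes of the annotation were hit: 127 windows overlapped one, in 12 of the clusters, and 48 windows overlapped none. The other 17 clusters held a few protein-coding genes, several long noncoding RNAs and 2 solo long terminal repeats. No member overlapped a wtf gene, a tRNA, rRNA, snRNA or snoRNA gene, or a gene of the list of highly transcribed genes. The name "arm windows" fits with a caveat at centromere III, since one single-window cluster lay 200 bases and a cluster of 4 windows 7400 bases from the excluded pericentromere.

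The tables hold 13 ChIP libraries of 5 genotypes, with 3 replicates (A, B, C) of each of clr3-D232N, Δprw1 and Δfkh2. There were 2 of wild-type, lettered B and C, and 2 of clr6-1, lettered A and B. Each genotype is 1 strain, and every strain, wild-type included, is of the MAT ΔREIII background, in which short deletions of Atf1/Pcr1 binding sites inactivate the REIII element of the mating type locus and fluorescent reporters driven by the ade6 promoter sit at the locus and elsewhere. Δfkh2 and Δprw1 are deletions of the forkhead factor Fkh2 and of Prw1, a Clr6 complex subunit. clr6-1 is a hypomorphic allele of the histone deacetylase Clr6, and clr3-D232N is a catalytically dead allele of the deacetylase Clr3. All cultures grew in rich YES medium at a common temperature. The study's methods call the replicates biological, with no word in the sources used here on whether they were separate cultures, so p-values measure the spread between these libraries.

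H3K9me2 is the methyl mark that the methyltransferase Clr4 places in fission yeast heterochromatin and that HP1 proteins such as Swi6 bind. Tf2 elements are LTR retrotransposons of the Ty3/Gypsy kind, which CENP-B homologs keep silent by bringing in the deacetylases Clr3 and Clr6. Away from centromeres, telomeres and the mating type locus, the mark is otherwise found in small islands, many of them at meiotic genes whose transcripts are eliminated during vegetative growth.

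Values are normalised counts per 300 bp window, that is fragment counts divided by a library's size factor. Totals of the 5 kb bins ran from 4408669 to 12641248 fragments per library. With the size factors taken from these bins, the median bin corresponded to between 105 and 106 normalised counts per 300 bp in each library, and this is called the background level below. The authors kept windows above 1.7 times the background, which is 179 on this scale. The arm windows sat just above it: their mean over the 13 libraries had a median of 218 and ran from 183.5 to 765.4, against a median of 1700 in the other 1325 windows. No library count of an arm window was under 48. The values are ChIP counts without input normalisation. The 1500 windows took from 27.1% of the fragments in clr3-D232N replicate B to 70.3% in clr6-1 replicate B, and 70.2% and 57.3% in the wild-type libraries.

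Sequence sets the arm windows apart from one another, so the windows on which the results turn are shown here, read from the RefSeq assembly ASM294v3, whose lengths of chromosomes I, II and III equal those in the tables (built on ASM294v2 per the processing notes). All are given 5′ to 3′ on the forward strand. Capitals mark bases inside a 34-base word that occurs at more than 1 position of the 3 chromosomes, on either strand, 34 bases being the length of a trimmed read. The first is a window of the coding region of Tf2-1, on chromosome I from 1466101 to 1466400, in which no word of this length has a single place.
Tf2-1 window: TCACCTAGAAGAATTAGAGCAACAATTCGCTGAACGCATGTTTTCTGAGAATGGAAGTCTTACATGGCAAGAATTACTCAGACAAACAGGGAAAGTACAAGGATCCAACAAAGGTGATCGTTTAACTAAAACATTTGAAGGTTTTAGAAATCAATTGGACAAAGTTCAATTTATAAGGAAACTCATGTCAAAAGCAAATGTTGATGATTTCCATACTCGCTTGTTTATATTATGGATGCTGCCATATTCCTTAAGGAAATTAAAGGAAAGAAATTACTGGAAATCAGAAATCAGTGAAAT
The next window lies on chromosome I from 2941501 to 2941800, over the long noncoding RNA SPNCRNA.3330, where no Tf2 gene is annotated. Each of its 34-base words was also found at a Tf2 gene or within 500 bases of one, as was the case for all 4 windows of its cluster.
SPNCRNA.3330 window: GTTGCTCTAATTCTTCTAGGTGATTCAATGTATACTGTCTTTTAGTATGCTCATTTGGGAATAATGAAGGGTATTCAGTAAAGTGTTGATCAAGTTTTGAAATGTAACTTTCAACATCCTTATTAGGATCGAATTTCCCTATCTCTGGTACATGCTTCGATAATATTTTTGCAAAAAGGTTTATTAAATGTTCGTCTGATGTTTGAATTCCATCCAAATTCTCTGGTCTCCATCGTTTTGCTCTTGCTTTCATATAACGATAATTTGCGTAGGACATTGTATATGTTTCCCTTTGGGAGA
Capitals over the whole of the ubi4 window, on chromosome II from 1044601 to 1044900, have another source. Its words recur only within the same polyubiquitin gene, whose coding units stand in tandem.
ubi4 window: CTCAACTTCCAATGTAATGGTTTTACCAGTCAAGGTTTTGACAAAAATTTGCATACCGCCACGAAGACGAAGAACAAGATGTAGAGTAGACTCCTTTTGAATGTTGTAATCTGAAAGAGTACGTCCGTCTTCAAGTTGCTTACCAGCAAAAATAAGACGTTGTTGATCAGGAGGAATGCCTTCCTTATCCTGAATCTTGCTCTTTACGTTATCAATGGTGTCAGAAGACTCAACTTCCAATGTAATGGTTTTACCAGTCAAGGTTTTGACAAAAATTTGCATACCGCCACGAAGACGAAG
The 4 windows that follow come from the clusters with called differences and hold unique sequence almost throughout. The first lies over SPNCRNA.394, on chromosome II from 2198701 to 2199000.
SPNCRNA.394 window: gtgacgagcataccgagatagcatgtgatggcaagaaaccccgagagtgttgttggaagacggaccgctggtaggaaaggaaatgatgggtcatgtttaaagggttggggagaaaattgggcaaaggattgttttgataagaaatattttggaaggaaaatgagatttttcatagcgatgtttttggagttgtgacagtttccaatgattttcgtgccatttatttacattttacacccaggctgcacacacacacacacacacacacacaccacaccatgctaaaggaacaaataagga
The window over SPNCRNA.1506, on chromosome II from 2339701 to 2340000, ends inside a solo long terminal repeat, with an overlap of 56 bases, and its only repeated stretch is there.
SPNCRNA.1506 window: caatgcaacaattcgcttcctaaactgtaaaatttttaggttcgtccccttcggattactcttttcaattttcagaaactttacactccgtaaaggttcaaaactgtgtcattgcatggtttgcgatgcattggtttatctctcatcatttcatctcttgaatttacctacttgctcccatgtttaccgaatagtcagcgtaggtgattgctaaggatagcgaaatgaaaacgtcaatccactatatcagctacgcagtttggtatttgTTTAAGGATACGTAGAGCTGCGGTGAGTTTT
The window on chromosome III from 1176001 to 1176300 overlaps no gene. It ends 51 bases inside a solo long terminal repeat and lies between mam301 and tum1.
LTR window near tum1: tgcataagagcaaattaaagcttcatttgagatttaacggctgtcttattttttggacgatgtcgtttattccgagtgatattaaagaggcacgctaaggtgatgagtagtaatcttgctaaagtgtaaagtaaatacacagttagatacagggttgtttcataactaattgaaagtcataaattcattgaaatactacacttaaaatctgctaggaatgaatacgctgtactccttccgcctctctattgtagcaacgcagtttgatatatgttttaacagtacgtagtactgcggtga
The last window covers the 3′ part of the meiotic gene mug9, on chromosome III from 2369101 to 2369400.
mug9 window: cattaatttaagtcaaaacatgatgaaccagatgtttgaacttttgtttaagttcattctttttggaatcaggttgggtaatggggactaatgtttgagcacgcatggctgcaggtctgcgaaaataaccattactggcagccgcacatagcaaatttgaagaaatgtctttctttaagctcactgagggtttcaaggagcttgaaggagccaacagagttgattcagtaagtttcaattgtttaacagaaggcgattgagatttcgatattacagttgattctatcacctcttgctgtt

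The clusters thus fell into 17 whose windows averaged at least 90% of repeated 34-base words, 9 with under 10%, and 3 in between. Repeated sequence was of 3 kinds: Tf2 genes and the Tf2-derived cluster at SPNCRNA.863, SPNCRNA.3329 and SPNCRNA.3330 (100% repeated), tandem repeats inside genes for cell surface glycoproteins (gsf2, 96.3%, and pfl3, 94.3%) and ubiquitin (ubi4, 100%), and SPBPJ4664.02, a glycoprotein gene with 96.0% repeated words. The map of all clusters by library shows how this division runs through the levels.

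**Figure D1:**
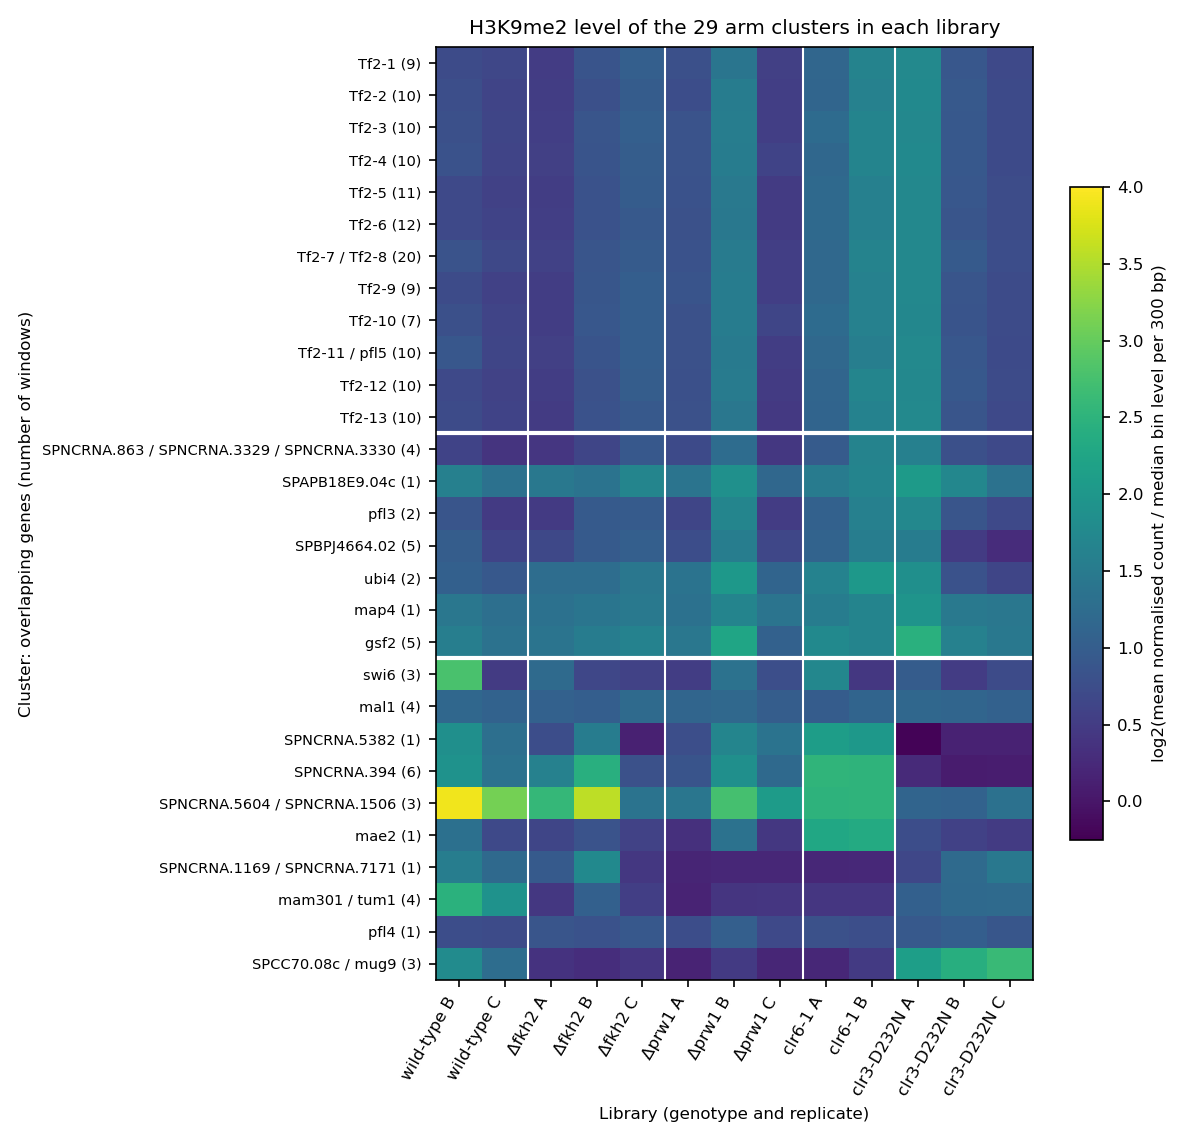
Each row is one of the 29 clusters, named by its genes with the number of windows, and each column one of the 13 libraries. Colour gives the log2 of the mean normalised count over the background level. The top block holds the 12 Tf2 clusters, the middle block other clusters with at least 35% repeated words, and the bottom block mostly unique sequence, where the genotypes differ most.

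Over the Tf2 genes, H3K9me2 signal was low in wild-type and no window passed the test in any mutant. The mean over the 127 Tf2 windows was 178.6 and 161.3 normalised counts in wild-type replicates B and C, that is 1.7 and 1.5 times the background level. In Δfkh2 it was 153.3, 189.7 and 211.1 in replicates A, B and C, on either side of wild-type. In Δprw1 it was 184.8, 297.7 and 152.2, so that replicate B stood apart from the other libraries of its genotype. In clr6-1 it was 238.0 and 327.2, both above both wild-type libraries. In clr3-D232N it was 353.4, 198.3 and 174.1, with replicate A apart and replicate C below wild-type replicate B. The wild-type mean was 170.0 ± 12.2 (SD, n = 2). In order of level it was followed by Δfkh2 at 184.7 ± 29.2 (SD, n = 3), Δprw1 at 211.6 ± 76.3 (SD, n = 3), clr3-D232N at 241.9 ± 97.3 (SD, n = 3) and clr6-1 at 282.6 ± 63.0 (SD, n = 2), and neighbours in this order differed by less than the larger of their SDs. Counts come from whole cultures, so fewer cells with the mark and less of it per cell cannot be told apart. Without input normalisation they also depend on the number of Tf2 copies in each strain, which was not examined here.

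The filter on windows bears on these values. In the wild-type mean, 45 of the 127 Tf2 windows lay above 1.7 times the background level, against 68 in Δfkh2, 126 in Δprw1 and all 127 in both clr6-1 and clr3-D232N. Many Tf2 windows therefore passed the filter through the mutant libraries, and counts over those that passed cannot show that the elements as a whole were higher in a mutant.

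Against wild-type, the median log2 fold change of the 127 Tf2 windows was 0.11 in Δfkh2, with a range from -0.15 to 0.42, and 0.31 in Δprw1, with a range from 0.00 to 0.67. It was 0.74 in clr6-1, from 0.35 to 1.09, and 0.51 in clr3-D232N, from 0.22 to 0.80. Over all 1500 windows the medians were -1.38, -1.53, 0.02 and -2.46 in the same order. At a Benjamini-Hochberg adjusted p under 0.005 in edgeR's quasi-likelihood test and an absolute log2 fold change above 1, 0 of the 127 windows were called in either direction in any mutant, and 0 by DESeq2. The mean wild-type Tf2 level was only 1.62 times the background, so a fall to background would stay short of this fold-change threshold. In most of these windows a lower call thus needed counts under the background, and its absence cannot show that no mark was lost. At an unadjusted p under 0.05, 67 Tf2 windows were higher in clr6-1, 8 in clr3-D232N, 1 in Δprw1 and 0 in Δfkh2, and none was lower. The lowest edgeR adjusted p of a Tf2 window was 0.0088 in clr6-1, 0.026 in clr3-D232N, 0.075 in Δprw1 and 0.28 in Δfkh2. With an adjusted p under 0.05 as the threshold, 3 Tf2 windows were called higher in clr6-1. Both clr6-1 libraries lay above both wild-type libraries in 124 of the 127 windows, where 30.7% of all 1500 windows showed this order. In clr3-D232N every library lay above both wild-type libraries in 47 of the 127, against 6.6% of all windows. In Δprw1 this held for 7, against 3.13%, and in Δfkh2 for 9, against 2.47%. The Tf2 windows share their sequence, so they are not separate measurements.

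The Tf2 medians also rested on single libraries. The Δprw1 median was -0.02 without replicate B, and the Δfkh2 median was 0.01 without replicate C. The clr3-D232N median fell to 0.14 without replicate A. In clr6-1 the median was 0.49 without replicate B, with 0 windows at an unadjusted p under 0.05, and 0.96 without replicate A.

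Most 34-base words do not tell the copies apart. The 13 annotated genes are 4001 to 4117 bases long, 8 on chromosome I, 3 on II and 2 on III, and any copy shared at least 99.5% of its bases with any other over their longest BLAST alignment. Each had from 7 to 12 member windows of the 14 or 15 that tile it, and a 34-base word of a Tf2 window was found at a median of 13 positions. The copies had nearly one level in each library. Tf2-6, on chromosome I from 4022492 to 4026493 and the copy with the most member windows, had 169 and 160 normalised counts in wild-type replicates B and C, and 241 and 321 in clr6-1 replicates A and B. Tf2-10, on chromosome II from 1965390 to 1969390 and the copy with the fewest, had 181 and 161 in wild-type and 247 and 323 in clr6-1. Across the 13 copies the highest wild-type mean exceeded the lowest by 1.10 times, and in the mutants this ratio was between 1.05 and 1.07. How far read pairs that reach a variant or a flank separate the copies was not tested, so a level for a single copy is not read apart from that of the family.

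Along the element the signal was slightly uneven. In the first 500 bases of the genes the wild-type mean of the member windows was 142.5, and from 2000 to 2500 bases it was 191.4. For clr6-1 the same stretches had 264.4 and 298.6, and for clr3-D232N 215.8 and 259.4. The lowest of these genotype means lay at the start of the gene in wild-type, Δfkh2 and clr3-D232N. Long noncoding RNAs of the opposite strand are annotated over every Tf2 gene.

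The libraries that stood apart at the Tf2 genes did so at other repeated sequence as well. Δprw1 replicate B was the highest of its genotype in all 140 windows with at least 90% repeated words, and clr3-D232N replicate A likewise in all 140. In these windows the highest Δprw1 library exceeded the lowest by a median of 1.97 times, and the highest clr3-D232N library by 2.06 times. Most of the 140 windows overlap a Tf2 gene, so these values largely repeat the Tf2 spread. In the 26 windows with under 10% repeated words the clr3-D232N ratio was 1.22. For Δprw1 it was 1.51 there, with replicate B the highest in 22 of the 26, so a spread between its libraries was not limited to repeats.

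**Figure D2:**
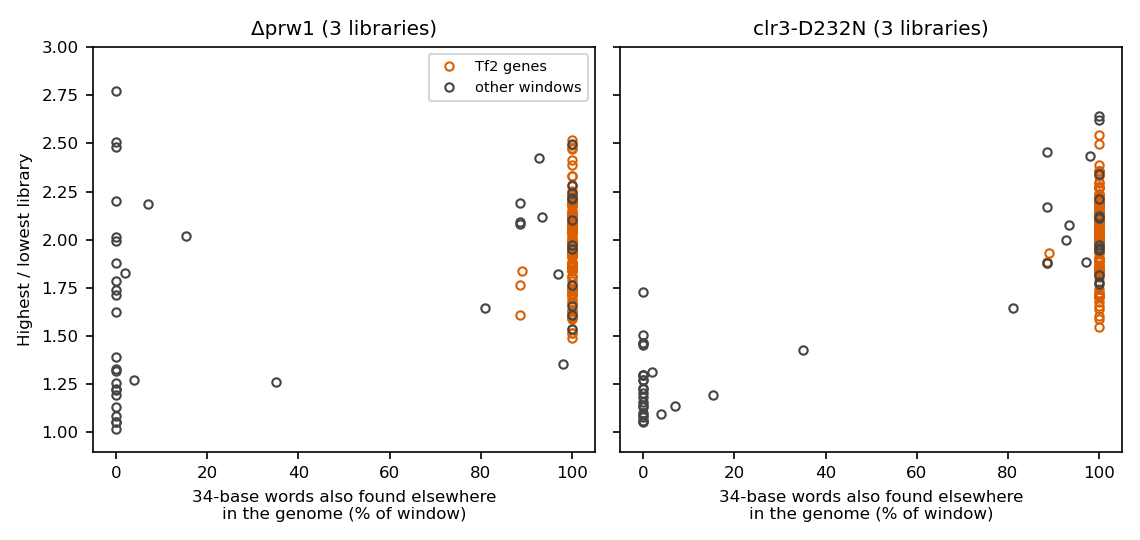
Each point is one of the 175 arm windows. The x axis gives the percentage of its 34-base words found at more than 1 position and the y axis the highest over the lowest normalised count of the 3 libraries, for Δprw1 (left) and clr3-D232N (right). In clr3-D232N the windows with at least 90% repeated words lie from 1.55 to 2.64 and those with under 10% from 1.05 to 1.73.

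The Tf2-derived cluster on chromosome I from 2940301 to 2941800 followed the Tf2 genes. Its mean was 160 and 137 in wild-type. For clr6-1 it was 206 and 330, and for clr3-D232N 320, 181 and 171 in replicates A, B and C. Replicate A of clr3-D232N was again the high one. The ubi4 windows, which share no 34-base word with Tf2, had 217 and 198 normalised counts in wild-type. Δprw1 had 272, 425 and 229 there, clr6-1 325 and 427, and clr3-D232N 386, 186 and 164. Here too Δprw1 replicate B and clr3-D232N replicate A were the high libraries of their genotypes. At gsf2, which encodes a cell surface flocculin, the wild-type libraries had 310 and 268, those of Δprw1 286, 500 and 220, of clr6-1 356 and 335, and of clr3-D232N 579, 324 and 288. At pfl3, a DIPSY family glycoprotein gene, it was 191 and 146 in wild-type and 353, 193 and 170 in clr3-D232N. SPBPJ4664.02 had 210 and 160 in wild-type, 177, 310 and 166 in Δprw1, and 304, 149 and 128 in clr3-D232N. No window of these 5 clusters was called against wild-type. Over the 12 windows outside Tf2 genes with at least 80% of tandem repeats the median log2 fold change was 0.37 for clr6-1, 0.35 for clr3-D232N, 0.22 for Δprw1 and 0.10 for Δfkh2, each below that of the Tf2 windows.

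Size factors moved in part with these levels. The 4 highest libraries at Tf2 genes, clr3-D232N A, clr6-1 B, Δprw1 B and clr6-1 A, had size factors of 0.746, 0.466, 0.586 and 0.625, the lowest of the 13 apart from wild-type replicate B at 0.617, whose Tf2 level was only 178.6. Total fragments followed the levels less closely. clr3-D232N replicate A had the fewest (4408669), but Δfkh2 replicate A, with the next fewest (6171299), had one of the lowest Tf2 levels (153.3). The share of fragments in the 1500 windows was high in clr6-1 A and B, Δprw1 B and wild-type B, from 64.5% to 70.3%, and 28.4% in clr3-D232N A. In 4 of the 5 genotypes the library with the highest Tf2 level had the lowest size factor, the exception being Δfkh2. The part of depth, or of the share in windows, in the level of repeated sequence was not tested.

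**Figure D3:**
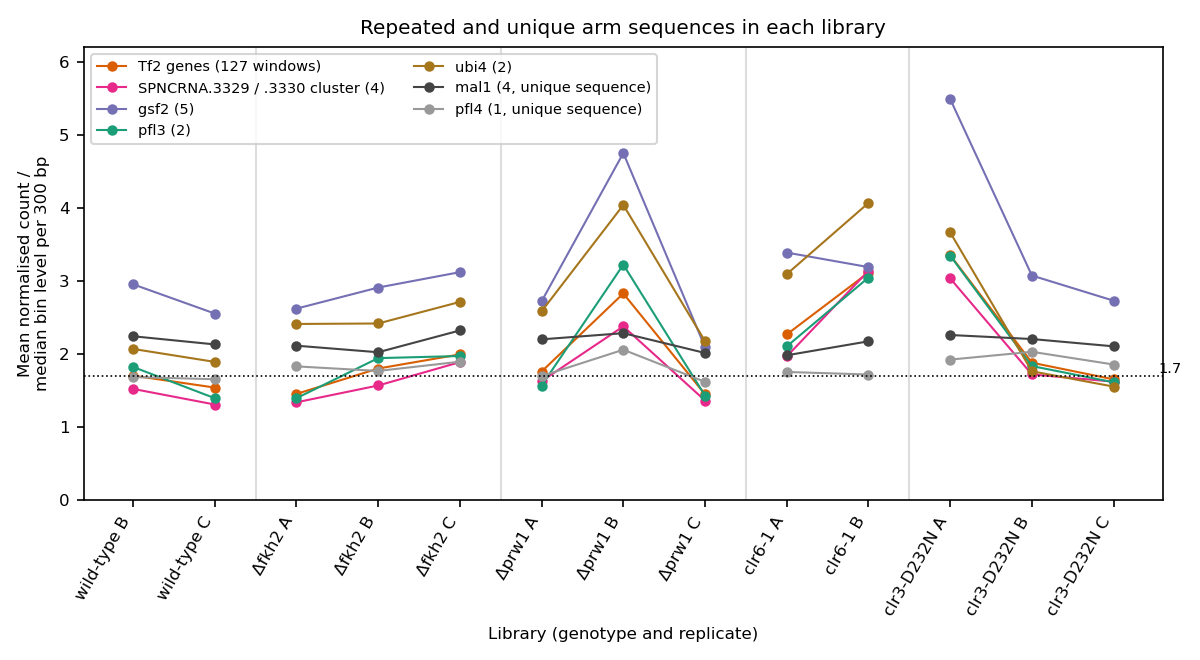
Points give the mean normalised count over the background level in each of the 13 libraries for Tf2 genes, the Tf2-derived cluster and 3 genes with tandem repeats, and for mal1 and pfl4, which hold unique sequence. Lines only join libraries of one genotype, and the dotted line marks 1.7 times the background. The repeated sequences peak together in Δprw1 B and clr3-D232N A. There mal1 and pfl4 stand within the range of their other libraries or, for pfl4 in Δprw1 B, slightly above it. These 2 genes do not stand for all unique sequence. Δprw1 B was the highest of its genotype in 22 of the 26 windows with under 10% repeated words.

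Unique sequence could be flat. The 4 windows of mal1, the maltase gene, had 235 and 223 in wild-type. Δfkh2 had 223, 213 and 246 there, Δprw1 231, 240 and 212, clr6-1 208 and 228, and clr3-D232N 238, 233 and 222. The libraries of all genotypes overlapped there. At pfl4, a flocculin gene, the means ran from 174.9 ± 2.2 (SD, n = 2) in wild-type to 204.0 ± 9.4 (SD, n = 3) in clr3-D232N. Every library of Δfkh2, clr6-1 and clr3-D232N lay above both wild-type libraries in this window, which was not called. Of all 1500 windows, 2.47%, 30.7% and 6.6% showed this order in the same mutants. Of partly or mostly repeated sequence, single windows at map4, the agglutination gene of mating cells (35% tandem repeats), at SPAPB18E9.04c (81%) and at pfl5 beside Tf2-11 (97%) were not called in any comparison.

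The called differences lay almost all in unique sequence. Against wild-type, edgeR called 7 arm windows lower for Δfkh2 (36% of all 1500 windows were), 10 for Δprw1 (48.3%), 5 for clr6-1 (36.4%) and 14 for clr3-D232N (64.9%). As shares of the arm windows these were 4.0%, 5.71%, 2.86% and 8.0%, all far below the background shares. The Tf2 windows, 127 of the 175, had little room for a lower call, as given above. Of the 26 windows with under 10% repeated words, 26.9% were called lower for Δfkh2 and 38.5% for Δprw1. For clr6-1 it was 19.2% and for clr3-D232N 53.8%. These shares were also below those over all windows, but nearer to them. Higher calls numbered 2 for clr6-1 (0.4%), 1 for clr3-D232N (0.867%), 0 for Δfkh2 (0.133%) and 0 for Δprw1 (0.0667%). By DESeq2 the lower calls were 5, 7, 5 and 11 and the higher calls the same. Together 20 windows of 8 clusters were called in at least 1 mutant, 18 of them lower, none over a Tf2 gene. Of the 26 windows with under 10% repeated words, 8 had all mutant libraries under both wild-type ones for Δfkh2 (65.1% of all windows), as did 12 for Δprw1 (59.1%), 12 for clr6-1 (44.9%) and 13 for clr3-D232N (75.3%). Without wild-type replicate B, the higher of the wild-type pair in 24 of these 26 windows, the lower calls were 1, 3, 1 and 4. The part of wild-type replicate B in each call is given below.

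**Figure D4:**
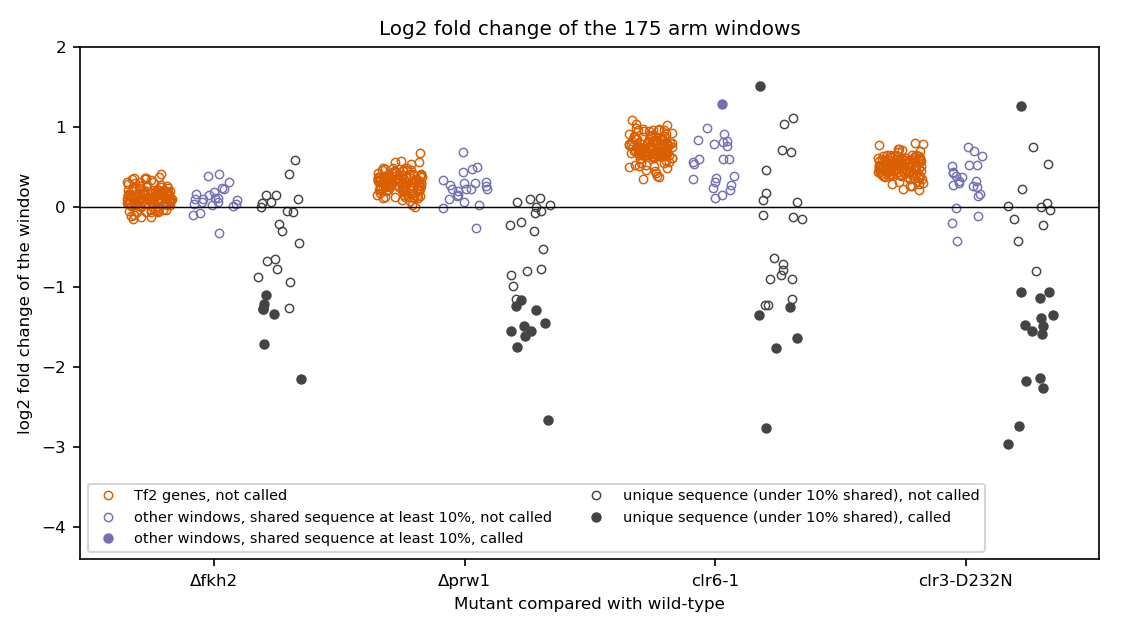
Each point is the log2 fold change of one of the 175 arm windows against wild-type, by mutant. Orange points are the 127 Tf2 windows, purple points other windows with at least 10% repeated words and grey points the 26 windows of mostly unique sequence, and filled points passed the test. All filled points but the mae2 window in clr6-1 are grey, and the Tf2 windows lie between -0.15 and 1.09.

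In wild-type, 10 arm windows exceeded 3 times the background level in both libraries, none over a Tf2 gene. They lay at SPNCRNA.5604 and SPNCRNA.1506 (3 windows), mam301, tum1 and the repeat between them (3), gsf2 (2), SPNCRNA.394 (1) and mug9 (1). Each of these places apart from gsf2 also had a called window.

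The arm window with the largest loss in Δfkh2, Δprw1 and clr6-1 was the one that ends in the solo long terminal repeat on chromosome III from 1176001 to 1176300. It had 946 and 589 normalised counts in wild-type. The Δfkh2 libraries had 146, 243 and 131, those of Δprw1 110, 118 and 135, of clr6-1 118 and 107, and of clr3-D232N 107, 131 and 106. The 11 mutant libraries were all lower than either wild-type library, and all of them but Δfkh2 replicate B lay at or below 146. The log2 fold change was -2.15 (standard error 0.33) for Δfkh2, -2.66 (0.34) for Δprw1, -2.76 (0.40) for clr6-1 and -2.73 (0.34) for clr3-D232N, with edgeR adjusted p-values of 5.6e-09, 2.6e-14, 2.8e-10 and 5.4e-15. These 4 calls held in every alternative that could be fitted, and without wild-type replicate B the values ran from -2.38 to -1.77.

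The windows on either side lie over genes. The mam301 window, from 1174801 to 1175100, had 475 and 351 in wild-type. Δfkh2 had 141, 200 and 168 there, Δprw1 138, 148 and 137, clr6-1 155 and 193, and clr3-D232N 190, 208 and 193. It was lower in all 4 mutants, by log2 fold changes of -1.28, -1.55, -1.24 and -1.06. Only the Δprw1 call of these remained without wild-type replicate B. At tum1, a thiosulfate sulfurtransferase gene, the window from 1177801 to 1178100 had 453 and 304 in wild-type. Δfkh2 had 144, 203 and 141, Δprw1 111, 142 and 154, and clr6-1 139 and 103. The clr3-D232N libraries, with 292, 347 and 380, overlapped wild-type. It was lower in Δfkh2 (log2 fold change -1.21), Δprw1 (-1.48) and clr6-1 (-1.63), and the next window, from 1178101, likewise (-1.11, -1.55 and -1.35). For clr3-D232N the values against wild-type were -0.15 and -0.43, not called. Tested directly, clr3-D232N was higher in the first of these tum1 windows than Δfkh2 by 1.06 (standard error 0.30), than Δprw1 by 1.33 (0.30) and than clr6-1 by 1.48 (0.36), with edgeR adjusted p-values of 0.0016, 0.00016 and 0.00014. In the window from 1178101 it was called higher than Δprw1 (1.12, adjusted p = 0.0023) but not than Δfkh2 (0.68, adjusted p = 0.061) or clr6-1 (0.92, adjusted p = 0.018). Of the 6 lower calls at tum1, only that of Δprw1 in the window from 1178101 remained without wild-type replicate B.

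The cluster over SPCC70.08c, a methyltransferase gene, and mug9 separated clr3-D232N from the other mutants. In the mug9 window from 2369101 the wild-type libraries had 541 and 376 normalised counts. Δfkh2 had 155, 118 and 147, Δprw1 121, 160 and 130, and clr6-1 118 and 153. clr3-D232N had 611, 778 and 920, above every other library. The window was lower in Δfkh2 (-1.71, standard error 0.39), Δprw1 (-1.75, 0.39) and clr6-1 (-1.76, 0.45), with edgeR adjusted p-values of 5.7e-05, 1.8e-05 and 0.00030, and in clr3-D232N it was 0.75 (0.40, adjusted p = 0.075) against wild-type. In the adjoining mug9 window, from 2369401 to 2369700, clr3-D232N had 472, 590 and 685 against 287 and 199 in wild-type, and was called higher (1.27, standard error 0.36, adjusted p = 0.00075). Without wild-type replicate B none of these calls was kept, although the log2 fold changes were still -1.43, -1.46, -1.48 and 1.55. Without replicate C the last was not called either. The direct comparisons set mutant against mutant, though the wild-type libraries still entered the common fit, its size factors and its estimate of spread. In them clr3-D232N exceeded Δfkh2, Δprw1 and clr6-1 in all 3 windows of the cluster. In the window from 2369101 it did so by 2.46, 2.50 and 2.51, with edgeR adjusted p-values of 1.1e-09, 5.1e-10 and 9.8e-08.

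On chromosome II, clusters of noncoding RNA genes were lower in clr3-D232N. The strongest arm signal in wild-type was at SPNCRNA.5604 and SPNCRNA.1506, from 2338801 to 2340000, with cluster means of 1569 and 911 in replicates B and C. Δfkh2 had 633, 1260 and 273, so that its replicate B lay inside the wild-type range. Δprw1 had 281, 705 and 445, clr6-1 596 and 603, and clr3-D232N 228, 223 and 266, all below wild-type. In clr3-D232N all 3 windows were called lower, the largest change being -2.97 (standard error 0.47, edgeR adjusted p = 9.2e-10) in the SPNCRNA.1506 window. The call at 2339101 (-2.13) was lost without wild-type replicate B (-1.63) and those of the other windows were kept. In Δprw1 2 windows were called lower, by -1.61 in that window and by -1.45 in the window from 2338801. Neither Δprw1 call was kept without wild-type replicate B, and that at 2338801 was lost with DESeq2 as well. In Δfkh2 and clr6-1 the SPNCRNA.1506 window had log2 fold changes of -1.27 (adjusted p = 0.011) and -1.23 (adjusted p = 0.039), not called. clr3-D232N was lower there than Δfkh2 (log2 difference -1.70, adjusted p = 0.00034) and than clr6-1 (-1.74, adjusted p = 0.00042), and its difference of -1.36 from Δprw1 was not called (adjusted p = 0.012).

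At SPNCRNA.394, on chromosome II from 2198401 to 2200200 and 38400 bases from the excluded mating type region, the clr6-1 libraries were the highest. The cluster means were 397 and 268 in wild-type. Δfkh2 had 326, 573 and 184, Δprw1 190, 383 and 242, clr6-1 606 and 603, and clr3-D232N 126, 111 and 112. The clr3-D232N libraries lay below all the others, near the background level. In the window from 2198701 to 2199000 wild-type had 364 and 231, clr6-1 784 and 917, and clr3-D232N 115, 91 and 111. clr6-1 was called higher there (1.52, standard error 0.45, edgeR adjusted p = 0.0019), a call that was lost when either library of clr6-1 or of wild-type, or clr3-D232N replicate B, was left out. In clr3-D232N 5 of the 6 windows were called lower, by -1.14 to -2.26, the largest change being in the window from 2199301. That window was the only one of the 5 still called without wild-type replicate B (-1.96). Against the other mutants, clr3-D232N was called lower in all 6 windows compared with clr6-1, by -1.49 to -3.01, in all 6 compared with Δfkh2, and in 3 compared with Δprw1.

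A pair of single windows showed related patterns. SPNCRNA.5382, on chromosome II from 1868401 to 1868700, had 384 and 259 in wild-type. Values were 456 and 427 for clr6-1 and 91, 118 and 118 for clr3-D232N. It was lower in clr3-D232N (-1.55, standard error 0.34, edgeR adjusted p = 1.8e-05), which was lost without wild-type replicate B (-1.24), and clr3-D232N was lower than clr6-1 (log2 difference -2.01, adjusted p = 5.9e-08). The window over mae2, the malic enzyme gene, on chromosome III from 276601 to 276900, had 261 and 170 in wild-type and 509 and 533 in clr6-1. The other genotypes lay between 133 and 268. It was higher in clr6-1 (1.28, standard error 0.38, edgeR adjusted p = 0.0018), but not once any single wild-type or clr6-1 library was left out. clr3-D232N was lower there than clr6-1 (log2 difference -1.70, adjusted p = 2.4e-06).

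The window of SPNCRNA.1169 on chromosome III from 1038601 to 1038900, next to the excluded pericentromere, had 308 and 241 in wild-type. It had 121, 123 and 123 in Δprw1 and 123 and 125 in clr6-1, close to the background level in all 5 libraries. It was lower in Δprw1 (-1.17, standard error 0.33, edgeR adjusted p = 0.00083), and the value in clr6-1 was -1.14 (adjusted p = 0.0064), not called. The Δprw1 call was lost without wild-type replicate B (-0.98). Δfkh2 had 205, 358 and 144 and clr3-D232N 166, 245 and 287, both overlapping wild-type.

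The calls at swi6, the gene for the HP1 protein itself, rested on 1 library. Its 3 windows, on chromosome I from 1703101 to 1704000 within the coding region, had a mean of 718 normalised counts in wild-type replicate B and of 147 in replicate C. clr6-1 replicate A had 345 and all other libraries between 143 and 270, which replicate C fell within. The windows were called lower in clr3-D232N (3), Δfkh2 (2) and Δprw1 (2), by -1.06 to -1.39. Without wild-type replicate B none was called and all 7 log2 fold changes turned positive, from 0.04 to 0.54. None of the 7 was called by DESeq2.

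**Figure D5:**
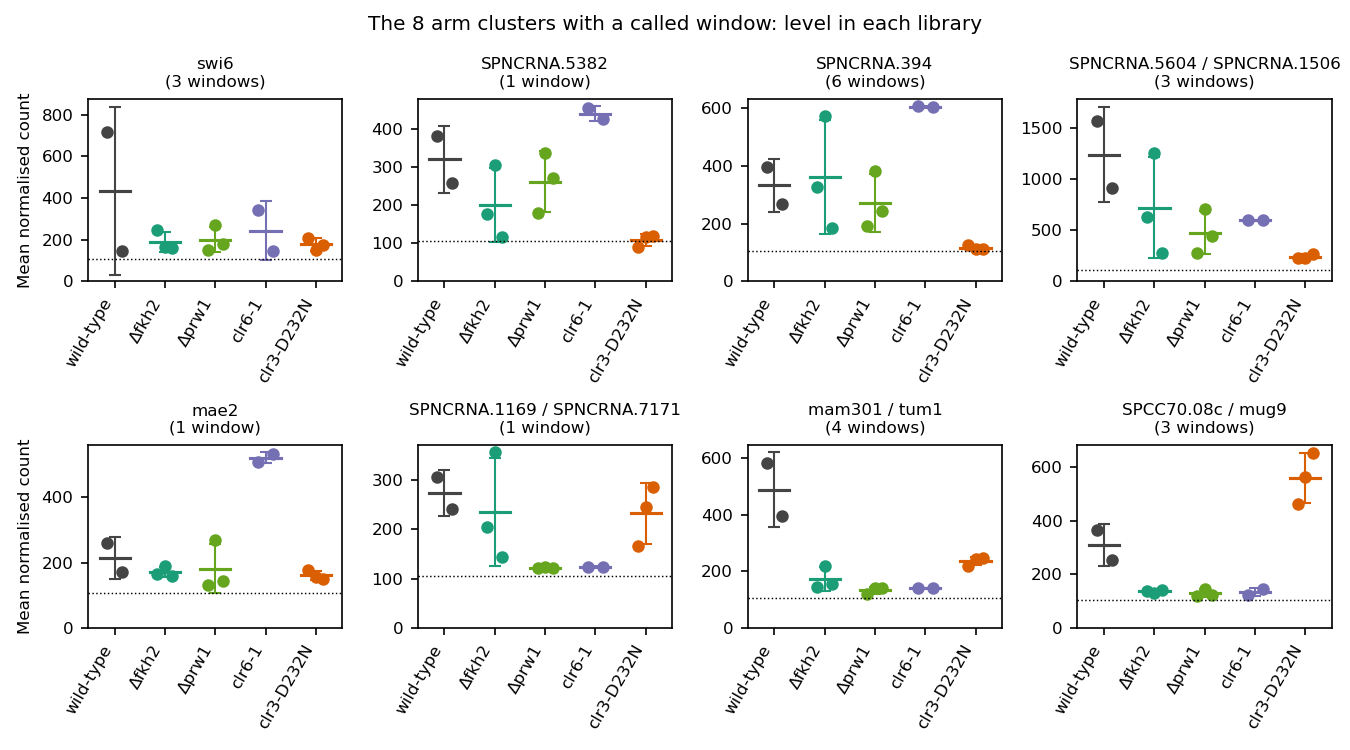
Each panel is one of the 8 clusters with a called window. Points are the mean normalised counts of single libraries, bars the genotype mean with its SD (n = 2 or 3) and the dotted line the background level. The clr3-D232N libraries are lowest at SPNCRNA.394 and SPNCRNA.5604 and highest at mug9, overlap Δfkh2 at SPNCRNA.5382, and wild-type replicate B stands alone at swi6.

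Between clr3-D232N and the other mutants, the arm windows called lower in clr3-D232N numbered 9 against Δfkh2 (25.4% of all 1500 windows), 4 against Δprw1 (3.33%) and 9 against clr6-1 (41.2%). Those called higher numbered 4 (4.13%), 5 (7%) and 4 (5.67%). As shares of the 175 arm windows the lower calls were 5.14%, 2.29% and 5.14% and the higher calls 2.29%, 2.86% and 2.29%, at or below the shares over all windows. The windows lower in clr3-D232N lay at SPNCRNA.5382, SPNCRNA.394, SPNCRNA.5604, SPNCRNA.1506 and mae2, and those higher at tum1, SPCC70.08c and mug9, and no Tf2 window was among them. The median log2 difference of the Tf2 windows was 0.37 against Δfkh2, 0.19 against Δprw1 and -0.24 against clr6-1. At an unadjusted p under 0.05, 2 Tf2 windows were higher in clr3-D232N than in Δfkh2 and none otherwise, and DESeq2 called 0. The lower calls against Δprw1 fell to 0 when Δprw1 replicate B or clr3-D232N replicate B was left out, and to 1 without clr3-D232N replicate C. Those against Δfkh2 fell to 4, 5 and 5 without clr3-D232N replicate B, clr3-D232N replicate C and Δfkh2 replicate B. Against clr6-1 the higher calls were 2 without clr6-1 replicate B.

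Scaling by total counts in place of median-of-ratios factors shifted the median 5 kb bin itself against wild-type, by log2 values of 0.80 for Δfkh2, 0.69 for Δprw1, -0.16 for clr6-1 and 1.06 for clr3-D232N. With it, 33, 27, 0 and 127 Tf2 windows were called higher in the same order. Relative to the shift of the median bin, the Tf2 medians were 0.11, 0.22, 0.74 and 0.50. The medians against wild-type were positive under DESeq2, TMM and total-count scaling. DESeq2 used the same counts and size factors as edgeR, and the TMM factors were nearly equal to these, so the shared sign is no separate support. For Δprw1 the sign did not hold without replicate B (-0.02).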

How the data were processed

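H3K9me2 ChIP-seq fragments were counted by the authors, who deposited raw counts per 300 bp window and per 5 kb bin. Per the study's methods and processing notes, reads were trimmed (Trimmomatic 0.39) and aligned to ASM294v2 (Bowtie2 2.4.2), proper pairs were kept, duplicates were removed (Picard 2.25.2, SAMtools 1.12) and windows counted with csaw. No mapping-quality filter is given in the sources used here, which bears on repeated sequence. The authors removed 1 wild-type and 1 clr6-1 library, and the 15 input samples were not analysed here.

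Size factors were median-of-ratios factors of the 2520 bins (DESeq2 1.42.0). All 1500 windows and 13 libraries entered one edgeR 4.0.16 quasi-likelihood fit in R 4.3.3, whose single term was genotype. Calls needed a Benjamini-Hochberg adjusted p under 0.005 over all 1500 windows and an absolute log2 fold change above 1. On simulated counts for Δprw1 against wild-type over 1500 windows, 94 of 200 windows given a log2 change of 2 were recovered, with 0 false calls. The 200 were drawn from all 1500 windows, so this does not give the recovery in the arm or Tf2 windows, whose counts were lower. Repeated 34-base words were counted in Python 3.11.15, and Tf2 genes aligned with BLAST 2.17.0. Named were Tf2 clusters, clusters of 3 or more windows, called windows and the extremes of each mutant. Other single windows named (map4, pfl4, pfl5 and SPAPB18E9.04c) and the small clusters of pfl3 and ubi4 were chosen after their values were seen. Alternatives were DESeq2, TMM, total-count scaling, a threshold of 0.05, fits of 2 genotypes, a replicate block, a filter on low windows, other gaps and overlaps, and leaving out each library. The members and lists were chosen with earlier results of these data known.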

Additional observations from a re-analysis of the deposited data

How the results depend on the processing

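TMM gave the same counts of called arm windows. With total-count scaling, clr3-D232N had 4 lower and 154 higher calls against wild-type, Δprw1 2 and 31, Δfkh2 1 and 41, and clr6-1 8 lower. Between mutants it gave 1 lower call against Δprw1, and 4 lower and 79 higher against clr6-1. Without the lowest 25% of windows, which held all Tf2 windows, lower calls were 1, 3, 1 and 8 in the 4 mutants, higher calls 1 in clr6-1 and 0 in clr3-D232N, and clr3-D232N had 1 higher call against each of Δfkh2, Δprw1 and clr6-1. At an adjusted p under 0.05, clr6-1 had 8 lower and 7 higher calls. In fits of only the genotypes compared, Δfkh2 had 3 lower calls, and clr3-D232N had 2 higher calls against Δfkh2 and 6 lower against Δprw1, as it had at an adjusted p under 0.05.

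Leaving out one library gave 4 to 14 lower calls for clr3-D232N, 1 to 8 for clr6-1, 3 to 12 for Δprw1 and 1 to 11 for Δfkh2. Higher calls ranged from 0 to 5 in clr6-1 and from 0 to 1 in clr3-D232N, and were 0 in Δfkh2 and Δprw1. Against Δfkh2, clr3-D232N had 4 to 10 lower and 3 to 4 higher calls, against Δprw1 0 to 6 and 3 to 6, and against clr6-1 8 to 11 and 2 to 5. Without wild-type replicate B, 30 of the 39 calls against wild-type were lost and 9 kept, and 7 were kept in every alternative. At swi6 the log2 fold changes ran from -1.99 without wild-type replicate C to 0.16 without replicate B and from -2.13 to 0.49 for Δfkh2, from -1.95 to 0.20 and from -2.08 to 0.54 for Δprw1, and from -2.11 to 0.040, -2.14 to 0.48 and -1.76 to 0.29 for clr3-D232N. Total-count scaling turned clr3-D232N to 0.042 at mam301 and to 0.17 at swi6 (window from 1703701), and moved 107 of the 145 cluster levels. The cause of these changes was not tested.

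The labels do not say that replicate letters pair the libraries, and deviations of same-letter libraries from their group means correlated with wild-type from -0.25 to 0.46. With the replicate block the lower calls against wild-type were 13 for clr3-D232N, 10 for Δprw1, 8 for Δfkh2 and 5 for clr6-1.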
